A study of Homo sapiens with 13 samples.

Results

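Chromatin accessibility at internal alternative promoters of protein-coding genes was examined in a pair of established lines of human small cell lung cancer (SCLC), H82 and H146, profiled by ATAC-seq, which reads out open DNA through insertions of the transposase Tn5. H82 is a line of the NEUROD1-driven subtype (SCLC-N) and H146 a line of the SCLC-A subtype, both labelled wild type. Cells were untreated or were exposed for 14 days to 100 nM FHD-286, an inhibitor of the ATPases SMARCA4 and SMARCA2 of the SWI/SNF chromatin remodelling complex, with 4 untreated and 3 treated libraries for H146 and 3 of each for H82. The values were 1 list (atlas) of accessible regions per line, pooled over untreated and treated libraries, so a region had a position and a width but no height, no depth and no replicate. FHD-286 against untreated cells could therefore not be compared, each line stood as 1 sample, and no test between the lines was made. A region was a member when it lay on chromosomes 1 to 22 and within 500 bp of the 5′ end of a protein-coding transcript (GENCODE 44) that started over 5 kb downstream of its gene's own 5′ end and over 5 kb from the 5′ end of every protein-coding gene. There were 4448 such regions among 201148 in H82 and 3843 among 169986 in H146, or 8291 of 371134 in all. They were read against 20419 internal 5′ ends of 6663 genes, which were 34.9% of 19111 protein-coding genes. The 5′ end of NEUROD1 held a region of 7865 bp in H82 and none in H146.

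Many human genes can start transcription at more than one promoter. An internal promoter lies inside the gene as annotated from its most upstream start, and transcripts from it carry a different first exon, often with a shorter or altered amino terminus of the protein. Neuronal genes are rich in such starts, which can separate isoforms by cell type. Promoters within CpG islands, stretches with many CG dinucleotides, tend to be open in most tissues, and CpG-poor promoters tend to be tissue-restricted.

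The sequences below are shown as examples of CpG content at internal promoters open in both lines and in 1 line only, and the contrast between these classes rests on the counts over all windows given further on, not on these few. Each is the 150 bases directly upstream of an internal 5′ end (hg38 reference, read 5′ to 3′ on the gene's strand) with every CG dinucleotide in capitals. They were taken, for each line, from the widest regions found in that line only that held the 5′ end, and, among the listed genes described further on, from the intronic starts of good annotation support with the widest regions in both lines, passing over windows that overlapped an annotated exon. The first 2 were open in H82 only, the next 3 in H146 only, and the last 2 in both lines. They belong to ITGB2 (chr21:44910827-44910976, minus strand), WBP1L (chr10:102776099-102776248, plus strand), DERA (chr12:15956438-15956587, plus strand), FGD3 (chr9:92963811-92963960, plus strand), PIK3AP1 (chr10:96633242-96633391, minus strand), DLGAP4 (chr20:36461188-36461337, plus strand) and KCNIP3 (chr2:95346578-95346727, plus strand).
ITGB2: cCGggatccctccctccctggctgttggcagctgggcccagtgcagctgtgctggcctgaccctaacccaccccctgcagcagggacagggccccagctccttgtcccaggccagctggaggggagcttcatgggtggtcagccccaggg
WBP1L: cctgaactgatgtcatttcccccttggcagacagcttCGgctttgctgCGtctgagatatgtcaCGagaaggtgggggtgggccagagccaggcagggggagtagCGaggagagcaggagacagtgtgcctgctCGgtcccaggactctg
DERA: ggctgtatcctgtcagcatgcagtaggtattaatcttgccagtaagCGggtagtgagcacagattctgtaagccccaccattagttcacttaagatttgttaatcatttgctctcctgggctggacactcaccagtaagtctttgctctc
FGD3: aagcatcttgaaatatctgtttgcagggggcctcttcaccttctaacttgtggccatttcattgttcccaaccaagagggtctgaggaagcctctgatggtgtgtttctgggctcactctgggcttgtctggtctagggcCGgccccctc
PIK3AP1: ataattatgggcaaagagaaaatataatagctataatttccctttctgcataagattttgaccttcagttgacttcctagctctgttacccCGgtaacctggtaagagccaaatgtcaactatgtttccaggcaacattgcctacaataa
DLGAP4: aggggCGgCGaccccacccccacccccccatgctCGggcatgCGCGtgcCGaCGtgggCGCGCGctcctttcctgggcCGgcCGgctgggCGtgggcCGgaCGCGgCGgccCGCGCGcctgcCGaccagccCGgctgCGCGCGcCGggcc
KCNIP3: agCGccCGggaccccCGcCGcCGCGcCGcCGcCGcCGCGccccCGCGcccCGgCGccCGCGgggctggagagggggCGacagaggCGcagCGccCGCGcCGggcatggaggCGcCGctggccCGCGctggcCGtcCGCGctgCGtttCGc

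The windows of DLGAP4 and KCNIP3 held 26 and 32 CG dinucleotides and had a GC content of 84.0% and 87.3%. The 3 windows open in H146 only held 1 each, with a GC content of 46.0% for DERA, 53.3% for FGD3 and 37.3% for PIK3AP1. Of the H82-only windows, that of ITGB2 held 1 at a GC content of 70.0% and that of WBP1L held 5 at 60.7%. A further H82-only window that the same rule selects is not reported here, and it was richer in both CG dinucleotides and GC than these, so the printed H82-only windows are poorer than the set the rule gives. The ITGB2 window also held 3 copies of the E-box word CAGCTG.

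The atlases of the 2 lines had exact bounds in common. Among 123405 pairs of overlapping regions, 35297 (28.6%) had exactly the same start, against 544 (0.441%) with starts 1 bp apart and 606 (0.491%) with starts 2 bp apart. Of all regions, 18929 had the same start and the same end in both atlases, which was 3.81% to 27.2% of the H146 regions of a chromosome. Among internal promoter regions 277 had both bounds in common, and 1126 in H82 (25.3%) and 1123 in H146 (29.2%) had at least 1 bound in common. The sources used here describe each atlas as built from the libraries of its own line, and the origin of the common bounds was not tested. Values of sharing are therefore given with and without these regions.

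Internal promoter regions were shared between the lines more often than other regions inside genes and less often than regions at gene-level promoters. Of the H82 members 77.5% had an H146 region over at least 1 of their bases (3449 of 4448, exact 95% Clopper-Pearson interval 76.3% to 78.8%), and of the H146 members 87.8% overlapped an H82 region (3374 of 3843, interval 86.7% to 88.8%). Intervals cover counting error only. Regions within 500 bp of a gene-level 5′ end were shared at 94.1% in H82 and 97.6% in H146, and other intragenic regions over 5 kb from any gene-level 5′ end at 54.1% and 66.1%. The members without a counterpart were 999 in H82 (22.5%) and 469 in H146 (12.2%), against a background over all regions of 40.4% in H82 and 29.4% in H146. Counted against the full atlas of the other line but with the regions that had a bound in common left out, which can only lower these values because all of them are shared, 69.9% of H82 and 82.8% of H146 members were shared, beside 40.2% and 52.7% of other intragenic regions and 92.0% and 96.7% of gene-level promoter regions.

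Internal promoter regions were wider than other intragenic regions, which the rule of membership itself favours. Their median width was 1163.5 bp in H82 and 1178 bp in H146, against 444 bp and 452 bp for other intragenic regions and 1776 bp and 1710 bp at gene-level promoters. Members that were shared had a median of 1424 bp in H82 and 1335 bp in H146. Members found in 1 line only had a median of 471 bp in H82 and 330 bp in H146, and the widest of the latter in H146 reached 1672 bp. Neighbouring sites within 500 bp had been merged, so a width is not that of a single site. A wide region also comes within 500 bp of a 5′ end more easily than a narrow one. The H82 median was 971 bp with a limit of 1 kb and 1457 bp where the region had to hold the 5′ end. The part of the rule in the excess over other intragenic regions was not tested.

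Sharing rose with width, and the order of the 3 kinds of region held within most width classes. At 200 to 299 bp, 44.1% of H82 members were shared (39.8% to 48.5%), against 41.6% of other intragenic regions (40.9% to 42.2%), so the intervals overlapped. At 1000 to 1999 bp, 88.3% of H82 members were shared, against 69.5% of other intragenic regions and 96.9% of gene-level promoter regions. In H146, 838 of 838 members of 2000 to 4999 bp and 115 of 115 members of 5000 bp and over overlapped an H82 region.

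**Figure D1:**
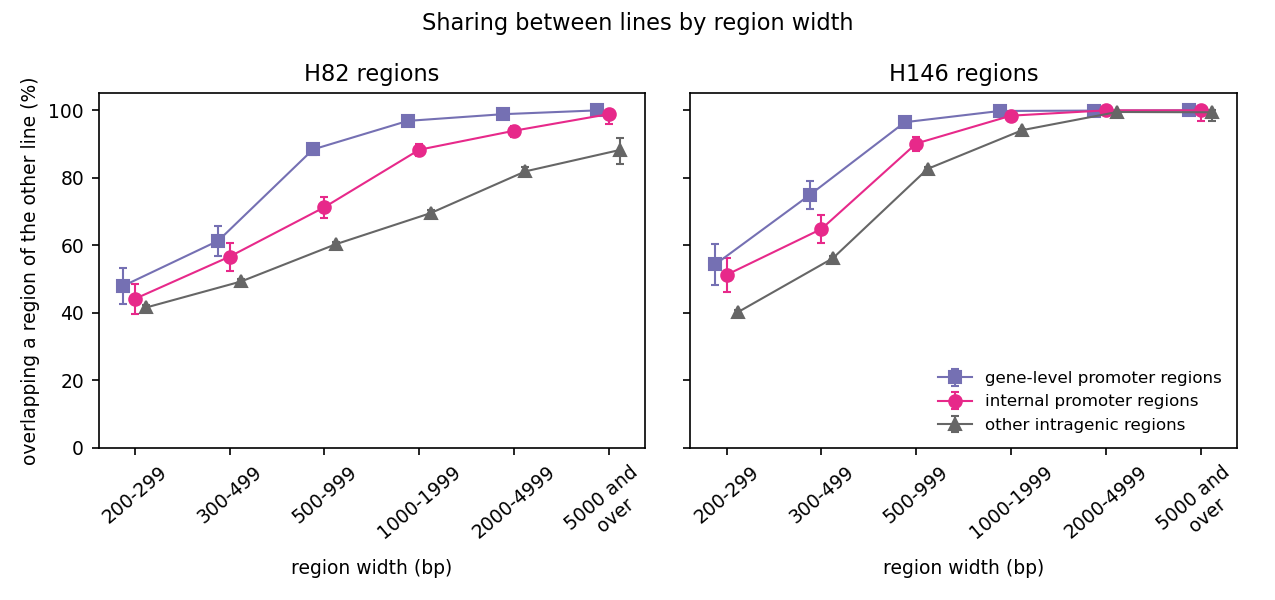
Percentage of regions that overlap a region of the other line (vertical axis) by region width in bp (horizontal axis), for H82 regions on the left and H146 regions on the right. Points are internal promoter regions (circles), gene-level promoter regions (squares) and other intragenic regions (triangles), bars are exact 95% intervals, and internal promoter regions lie between the others in most classes, as at 1000 to 1999 bp in H82 with 88.3%, 96.9% and 69.5%.

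At internal starts open in both lines the widths were close. Over 3834 groups of 5′ ends (ends of 1 gene within 500 bp of the next), the median width was 1513 bp in H82 and 1473 bp in H146, and the median log2 ratio of H82 to H146 was -0.02. The H82 region was the wider in 39.9% of groups, the H146 region in 52.7%, and 7.38% had equal widths. The H82 region was more than 2-fold wider in 391 groups (10.2%) and the H146 region in 296 (7.72%), against 6.37% and 2.67% of 14065 gene-level 5′ ends open in both lines.

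Sharing in H82 differed widely between chromosomes. The percentage of H82 members shared ran from 54.4% on chromosome 21 to 95.4% on chromosome 18, and that of other intragenic regions from 27.3% to 87.9% on the same chromosomes. In H146 the members ran from 78.2% to 93.8%. Chromosome 21 held 1.88 times and chromosome 15 held 1.80 times as many H82 as H146 regions, against 1.18 times over all chromosomes, while chromosome 18 held 0.789 times. The part of these counts in the sharing of members was not tested. Members were shared more often than other intragenic regions on 22 of 22 chromosomes in both lines, also with the regions that had a bound in common left out.

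**Figure D2:**
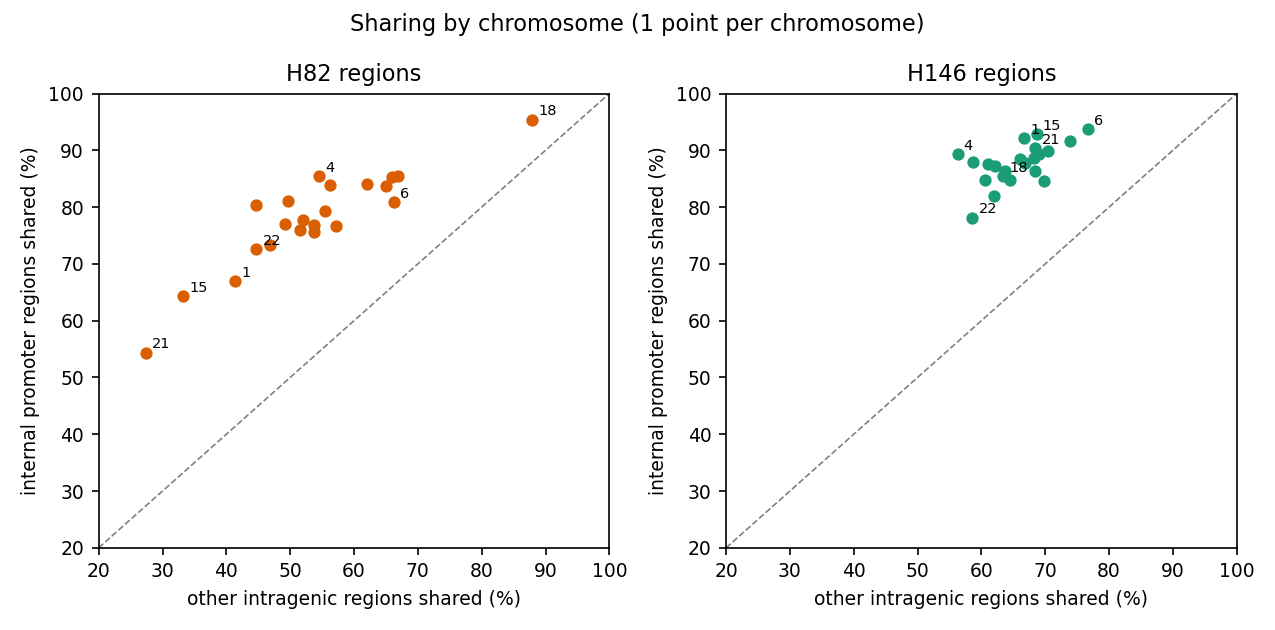
Percentage of internal promoter regions shared with the other line (vertical axis) against that of other intragenic regions (horizontal axis), 1 point per chromosome, for H82 on the left and H146 on the right, with chromosomes at the edges numbered. Every point lies above the dashed line of equality, and H82 points spread from 54.4% on chromosome 21 to 95.4% on chromosome 18.

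Counted by annotated 5′ end, 8344 of 20419 internal ends (40.9%, interval 40.2% to 41.5%) had a region in both lines. H82 alone had one at 1623 (7.95%), H146 alone at 741 (3.63%), and 9711 (47.6%) had none. Of the gene-level 5′ ends 73.6% had a region in both lines, with a background of 5.01% in H82 only and 1.9% in H146 only. The 500 bp limit added few ends per step: 270 H82 ends lay 401 to 500 bp from their nearest region and 225 lay 501 to 600 bp away, and for H146 these numbers were 221 and 190.

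The share open depended on what kind of start the annotation described. Internal ends at the start of the gene's canonical transcript, the isoform Ensembl takes as representative, were open in both lines at 78.2% (4221 of 5401), beside 73.6% of gene-level ends. These units differ, so the order of the 2 values is not read. Gene-level ends count once per gene, whereas shared members held a mean of 2.48 internal ends in H82 and 2.50 in H146. Other internal ends were open in both lines at 27.5% (4123 of 15018). Ends tagged as not reaching the true start of the messenger RNA, which mark truncated evidence rather than a mapped start, were open in both lines at 13.9% (787 of 5650), against 51.2% of ends without that tag (7557 of 14769). Among the latter, ends within an intron of the canonical transcript were open in both lines at 35.5% and in 1 line at 10.7% (H82) and 4.95% (H146), and ends within its exons at 16.3%.

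**Figure D3:**
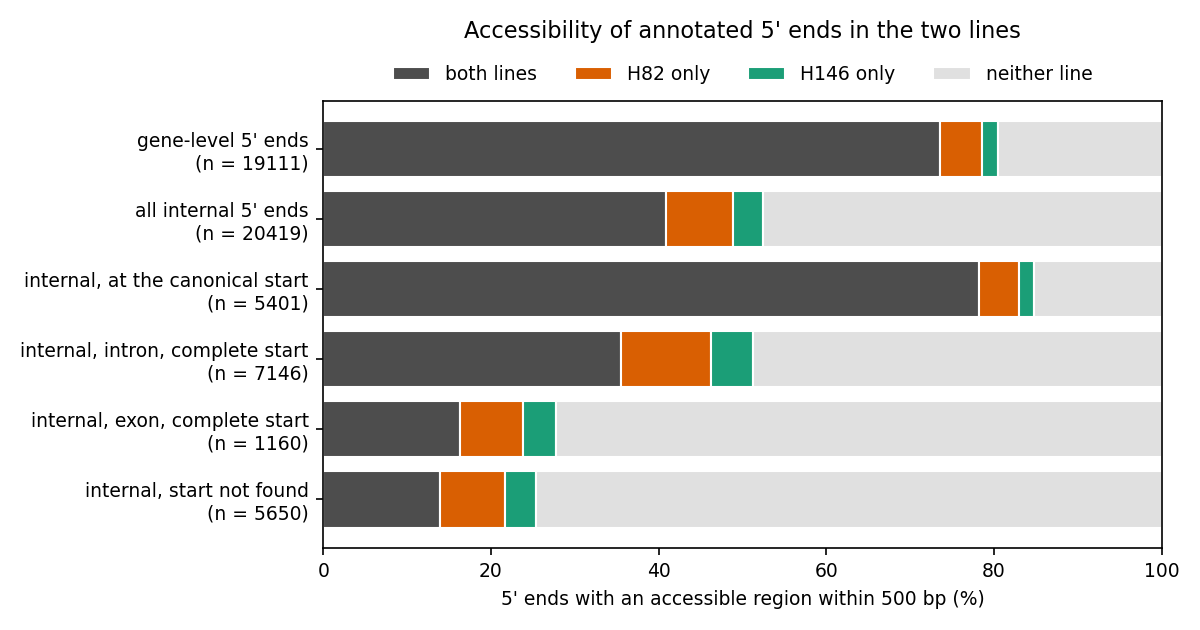
Percentage of annotated 5′ ends with an accessible region within 500 bp in both lines, H82 only, H146 only or neither (stacked horizontal bars), for gene-level 5′ ends and classes of internal 5′ ends, with the number of ends in each class. Internal ends at the canonical start (78.2% open in both) resemble gene-level ends (73.6%), and ends tagged as start not found are mostly closed (13.9% open in both).

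Ends open in 1 line were at the canonical start less often, and carried the start-not-found tag more often, than ends open in both. Of ends open in both lines 50.6% were at the canonical start, against 16.2% of H82-only and 13.1% of H146-only ends, and 9.43% carried the start-not-found tag, against 27.0% and 27.8%. The nearest region of the other line lay a median of 4047 bp from an H82-only end and 2336 bp from an H146-only end, and it was within 1 kb for 15.1% and 25.8% of them. Some ends called open in 1 line thus lay beside a region of the other line.

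CpG content separated the classes. In windows of 501 bp around 5′ ends without the start-not-found tag, the median GC content was 61.1% for 3203 groups open in both lines, 52.7% for 769 open in H82 only, 49.1% for 341 open in H146 only and 43.7% for 4054 open in neither. A window was called CpG-rich at a GC content of at least 55% and a ratio of observed to expected CG of at least 0.65. CpG-rich windows made up 42.7% of groups open in both lines, 8.45% of H82-only, 3.81% of H146-only and 1.36% of groups open in neither, and 53.8% of all 19111 gene-level 5′ ends. Read the other way, 91.1% of 1501 CpG-rich internal groups and 26.7% of 6866 CpG-poor groups were open in both lines. Leaving out canonical starts the values were 84.0% of 518 and 24.3% of 6004, so the contrast was not carried by canonical starts alone. The ITGB2, DERA, FGD3 and PIK3AP1 sequences printed above, with 1 CG each, are examples of the CpG-poor kind.

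**Figure D4:**
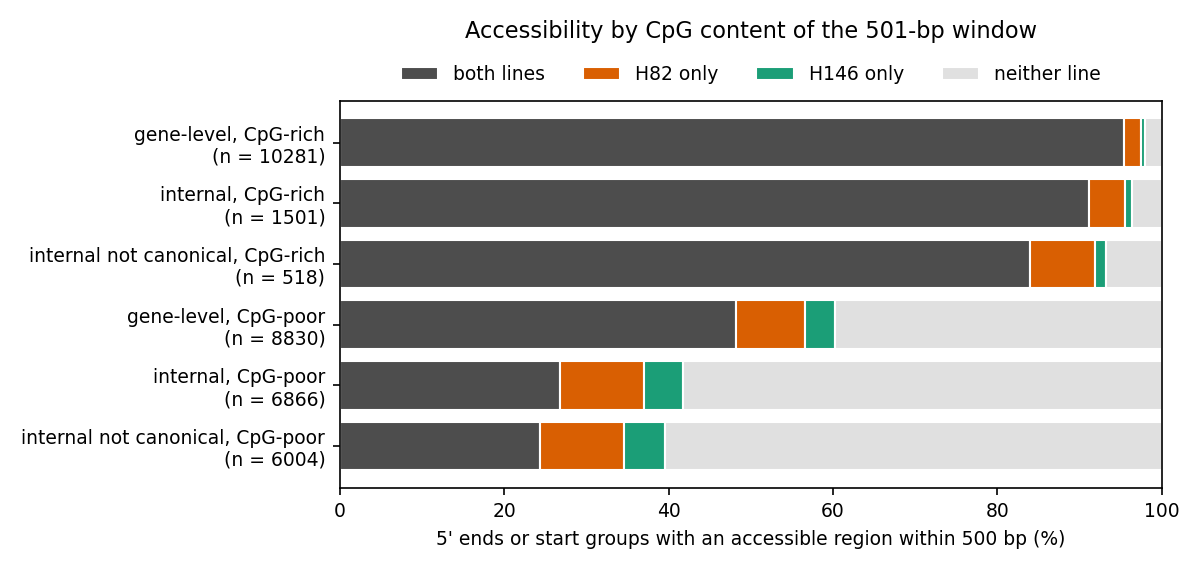
Percentage of gene-level 5′ ends and of internal start groups open in both lines, H82 only, H146 only or neither (stacked horizontal bars), split by the CpG content of the 501-bp window. CpG-rich internal groups were open in both lines at 91.1%, close to the 95.4% of CpG-rich gene-level ends, and CpG-poor internal groups at 26.7%, below the 48.3% of CpG-poor gene-level ends.

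Widths followed the same division. The median width at CpG-rich internal groups open in both lines was 1920.5 bp in H82 and 1895 bp in H146, against 1174 bp and 1193 bp at CpG-poor groups. CpG-poor groups open in 1 line had medians of 628.5 bp (704 groups, H82 only) and 394 bp (328 groups, H146 only).

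Exact words of binding motifs, searched on both strands of the 501-bp windows, differed with the base composition. GGGCGGG, the word of SP and KLF factors, was in 45.1% of windows open in both lines, 17.6% of H82-only, 9.09% of H146-only and 5.03% of closed windows, and in 47.6% of all gene-level windows. TATAAA ran the other way, with 11.4% of windows open in both lines, 18.9% of H82-only, 75 of 341 H146-only and 34.6% of closed windows, and 13.9% of gene-level windows. TAATCC, a core word of OTX2 and related homeodomain factors, was in 23.7% of H82-only and 14.4% of H146-only windows, beside 9.96% of windows open in both, 21.4% of closed windows and 11.1% of gene-level windows. CAGATG, an E-box form bound by NEUROD1 among others, was in 36.8% of H82-only and 36.7% of H146-only windows, 23.5% of windows open in both, 32.8% of closed and 20.6% of gene-level windows. CAGCTG, another E-box form, was in 35.9% of H82-only, 29.6% of H146-only, 31.2% of shared, 24.5% of closed and 28.1% of gene-level windows. A word match is a description of the sequence and not a site.

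By gene, both lines had a region at an internal 5′ end, the same end or different ones, in 2647 of 6663 genes (39.7%). Such a region was found in H82 alone in 576 genes (8.64%), in H146 alone in 240 (3.60%), and not found in 3200 (48.0%). Genes with an H82-only internal region outnumbered those with an H146-only one on 20 of 22 chromosomes. The share of genes with an H82-only one ran from 0.781% on chromosome 18, 1 of 128 genes, to 25.4% on chromosome 21, 17 of 67 genes. These chromosomes also had the lowest and the highest H82 to H146 ratio of region numbers. Among the other chromosomes the 2 orders were not the same throughout, and a link was not tested. The gene's own 5′ end was open in both lines in 448 of the 576 H82-only genes (77.8%) and in 198 of the 240 H146-only genes (82.5%), close to the 80.1% of genes with no open internal start and above the 69.9% of genes with an internal region in both. Over all 6663 genes with an internal 5′ end it was open in both lines in 5061 (76.0%), so the values of the 1-line classes lay near that of all such genes. A difference at the internal start was set by how these classes were chosen. With no region of the other line within 5 kb of the internal start they held 294 genes (H82) and 88 genes (H146).

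Internal starts did not shorten the protein uniformly. Where the internal start was not canonical and was not tagged as incomplete, the median length of the encoded protein was 87.2% of the canonical one for ends open in both lines (2215 ends), 84.2% for H82-only (600), 82.2% for H146-only (264) and 86.2% for closed ends (3102). The ends counted here are only a part of the non-canonical ends without the start-not-found tag. Those in an intron and open in both lines alone numbered 2540. These values are annotation lengths, and no transcript was measured.

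Genes of neuronal and developmental function were read from 10 lists chosen with earlier results of these data known, and their shares open in both lines stand beside the 39.7% of all genes with an internal 5′ end. Of 29 synaptic adhesion and scaffold genes with an internal 5′ end 22 were open in both lines, 1 was open in H82 alone, 2 were open in H146 alone and 4 were closed. Of 31 cytoskeleton linkers 27 were open in both and 1 in H146 only, of 29 ion channel genes 19 in both and 3 in H82 only, of 73 lineage transcription factors 48 in both, 6 in H82 only and 3 in H146 only, and of 51 regulators of small GTPases 32 in both, 4 in H82 only and 1 in H146 only. Of 15 cyclic nucleotide phosphodiesterases 10 were open in both and 2 in H82 only. Of 28 genes of vesicle release and reticulons 16 were open in both, 2 in H82 only and 1 in H146 only, and of 16 growth factor genes 8 in both and 1 in H82 only. Of 28 receptor kinases and phosphatases 11 were open in both, none in H82 alone, 3 in H146 alone, and 14 were closed. Of 11 neuroendocrine and low-neuroendocrine genes, a list compiled here from markers of these states, most of them named in the study, 7 were open in both and 1 in each line only. An internal 5′ end was annotated for 34.9% of all genes, and for 45.8% (neuroendocrine and low-neuroendocrine genes) to 94.4% (GTPase regulators) of the genes of these lists.

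Among adhesion genes, NRXN2, a presynaptic adhesion molecule, had 4 internal groups open in both lines, with 1773 bp in H82 and 3269 bp in H146 at its widest. DLGAP4, a postsynaptic scaffold protein whose CpG-rich window is printed above, held 5441 bp in H82 and 8742 bp in H146 at a start 155 kb into the gene.

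Among ion channel genes, the internal start of KCNIP3, which binds Kv4 potassium channels and calcium, lay 49.4 kb into the gene and held 4422 bp in H82 and 5199 bp in H146. FGF14, a modulator of sodium channels, was open at its canonical start, 486 kb from the gene-level end, with 5506 bp and 6059 bp. The genes with regions in both lines named here and in the following paragraphs were chosen after their values were seen.

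Some listed transcription factors were open at an internal start in both lines and others at none. TP63, a factor of stratified epithelia, PPARG, the factor of fat cell formation, and MITF, the factor of pigment cells, had 3, 8 and 11 internal ends, and none of these held a region in either line. The gene-level end of MITF was open in both lines, that of PPARG in H82 only and that of TP63 in neither. RUNX1, a hematopoietic factor, held 2679 bp in H82 and 3903 bp in H146 at a start that encodes 453 residues instead of 480 and lies 1116 kb from the gene-level end, which was closed in both lines. RUNX2, the factor of bone formation, held 1987 bp and 1590 bp, and RUNX3 held 1966 bp and 1393 bp at its canonical start, and the gene-level ends of both were also closed. MYT1, a zinc finger factor of neuronal differentiation, held 3000 bp in H82 and 2474 bp in H146, and its relative MYT1L held 2799 bp and 2977 bp. RARA, a retinoic acid receptor, held 9274 bp in H82 and 3040 bp in H146, and TP73, of the same family as TP63, held 5799 bp and 782 bp at a start that encodes 565 residues. Another TP73 start, which encodes 587 residues, was open in H82 only, with 3266 bp there and the nearest H146 region 5039 bp away. SNAP25, a core protein of synaptic vesicle fusion, held 3937 bp and 4278 bp at a canonical start 46.4 kb inside its gene.

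Signalling genes of the lists were divided in the same way. PDE4B, a cyclic AMP phosphodiesterase, and FGF1, a fibroblast growth factor, had 8 and 9 internal ends, and none of these held a region in either line. The gene-level end of PDE4B was open in both lines and that of FGF1 in neither. The cyclic nucleotide phosphodiesterases PDE4D and PDE10A held 1676 bp and 4217 bp in H82 and 2822 bp and 4337 bp in H146. DST, a linker of cytoskeletal filaments, held 3146 bp in H82 and 3577 bp in H146. BDNF, a neurotrophin with many first exons, held 3226 bp and 3346 bp. RTN4, a reticulon that limits axon growth, held 3672 bp and 3650 bp. In DST, BDNF and RTN4 the widths in the lines were closer than in TP73.

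Several genes carried many open internal starts. At least 1 start group was open in both lines in 2618 genes, at least 2 in 787 and at least 3 in 259. MCF2L, a guanine nucleotide exchange factor, had 10 of 12 groups open in both lines, over a gene of 205 kb. TCF4, a partner of proneural basic helix-loop-helix factors, had 8 of 17, with 8 open in H82 and 14 in H146, and lies on chromosome 18, where H82 had fewer regions than H146. SEPTIN9, a cytoskeletal GTPase, had 8 of 15, KIF1A, a kinesin that carries synaptic vesicle precursors along axons, had 8 of 8, and SLC16A3, a lactate transporter, had 7 of 7. ZBTB38, BAIAP2 and PLEC also had 7.

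One of the TCF4 starts open in H146 only encodes a short form. Around the start at 55401757 on chromosome 18 (hg38), which encodes 537 residues against 671 for the canonical form, H146 held a region of 999 bp, and the nearest H82 region was 3725 bp away. At the canonical start at 55588629, H82 held 1909 bp and H146 held 5732 bp.

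Of the 576 H82-only genes 230 had a start with basic annotation and transcript support level 1 or 2, and in 123 of these H146 had no region within 5 kb. The corresponding numbers for H146 were 91 of 240 and 30. The 12 widest of each are described here. In H82 they ran from 1772 bp to 14339 bp and in H146 from 383 bp to 1349 bp, so the ranges did not overlap. They are the widest of 123 genes in H82 and of 30 in H146, and these pools differ in size. Over all regions found in 1 line only, 10.1% in H82 and 2.29% in H146 were 1 kb or wider, so this difference was not particular to internal promoters.

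**Figure D5:**
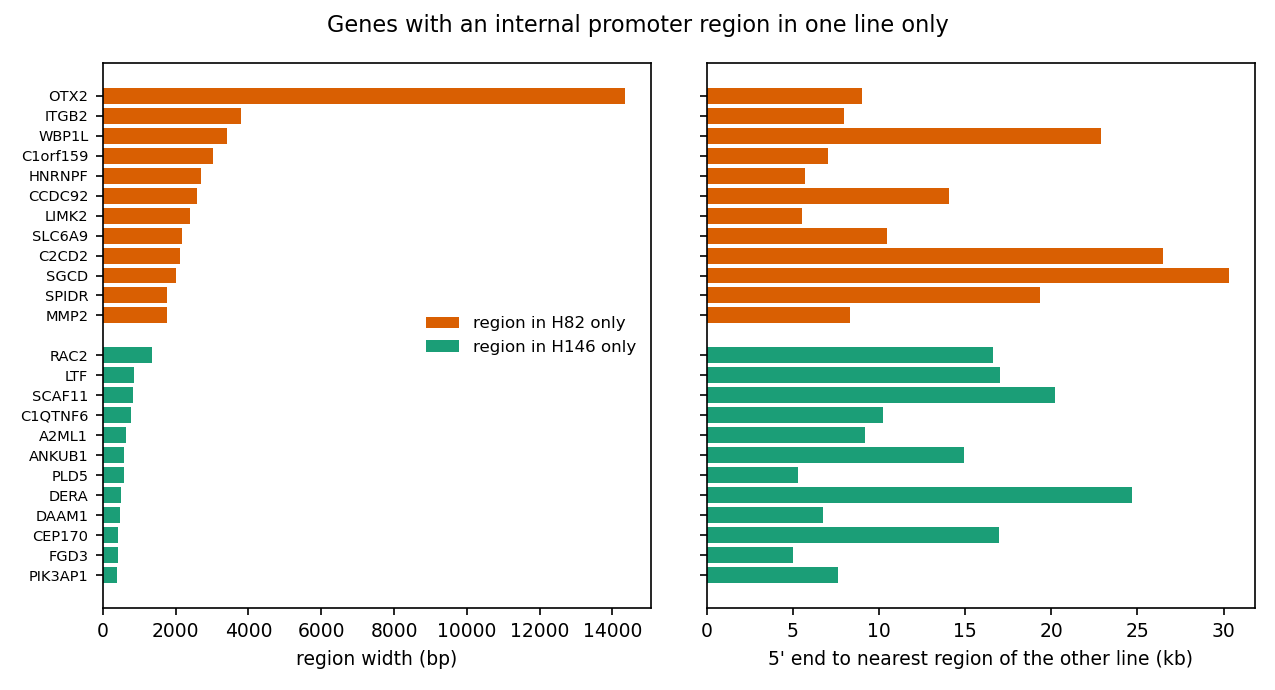
Width in bp of the region at an internal 5′ end (left) and distance in kb from that 5′ end to the nearest region of the other line (right), as bars, for the 12 genes per line with the widest regions found in that line only. Widths run from 1772 bp to 14339 bp for H82 and from 383 bp to 1349 bp for H146, and every bar on the right is over 5 kb by the choice of genes.

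The widest H82-only region lay over OTX2, a homeodomain factor of forebrain and retina. It spanned 14339 bp (chr14:56800811-56815149) over 7 of 7 internal 5′ ends, 6214 bp to 11045 bp from the gene-level end, and the nearest H146 region was 9004 bp from the start in the intron. The upstream edge of the H82 region lay within 5 kb of the gene-level end at 56816693. The 5 kb limits were applied to 5′ ends, not to regions. The gene-level OTX2 5′ end was also open in H82 only. Its width stood among wide neighbours: within 100 kb of the gene, 36 H82 regions had a median width of 3820.5 bp and 23 H146 regions had a median of 440.0 bp, and chromosome 14 held 31 of the 59 H82 regions over 20 kb. Whether the surroundings took part in the OTX2 width was not tested.

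ITGB2, the beta subunit of leukocyte integrins, held 3786 bp in H82 (chr21:44910678-44914463) at an intronic start 21.2 kb into the gene, with the nearest H146 region 7969 bp away. The start encodes 769 residues, the same number as the canonical form, and all 10 internal ITGB2 ends were open in H82. WBP1L held 3397 bp at a start 32.3 kb inside the gene, with no H146 region within 22882 bp, and encodes 342 residues instead of 363. HNRNPF, an RNA-binding regulator of splicing, held 2691 bp at a start that encodes 415 residues, as many as the canonical form. C1orf159 held 3020 bp and CCDC92 2576 bp, the latter 17 bp from the start.

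Further H82-only starts belonged to genes of signalling, transport and the extracellular matrix. LIMK2, a kinase that inactivates the actin-severing protein cofilin, held 2387 bp, and SLC6A9, the glycine transporter GlyT1, held 2181 bp at a start of 574 instead of 633 residues. C2CD2 held 2107 bp, 26492 bp from the nearest H146 region. SGCD, a sarcoglycan of the muscle membrane, held 1997 bp at its canonical start, 456 kb from a gene-level end closed in both lines, and MMP2, a gelatinase of the extracellular matrix, held 1772 bp at its canonical start with its gene-level end closed in both. SPIDR, a scaffold protein of homologous recombination, held 1774 bp. ITGB2 and C2CD2 lie on chromosome 21, where 25.4% of genes with an internal start were H82-only.

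The H146-only starts had narrow regions, as had H146-only regions in general, with a median of 315 bp over all of them. RAC2, a small GTPase of blood cells, held the widest, 1349 bp (chr22:37244158-37245506) at its canonical start, with all 5 internal ends open in H146 and the nearest H82 region 16620 bp away. The gene-level RAC2 end was also open in H146 only. C1QTNF6, a secreted protein of the C1q and TNF-related family, lies beside it on chromosome 22 and held 782 bp at its canonical start. LTF, which encodes the iron-binding protein lactoferrin, held 859 bp whose edge was 357 bp from its canonical start. SCAF11, a protein linked to splicing, held 837 bp at 421 bp from a start of 1271 instead of 1463 residues, and A2ML1, a protease inhibitor, held 645 bp at a start of 963 instead of 1454 residues.

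The others held less than 600 bp in H146. ANKUB1 held 588 bp, PLD5, of the phospholipase D family, 569 bp at 382 bp from its start, DERA, an aldolase of deoxyribose phosphate metabolism, 510 bp, and DAAM1, a formin of Wnt signalling to actin, 474 bp. CEP170, a centrosomal protein, held 427 bp, FGD3, an exchange factor for the GTPase CDC42, 408 bp, and PIK3AP1, an adaptor of phosphoinositide 3-kinase in B cells, 383 bp. The FGD3 start lay 5030 bp from the nearest H82 region, just past the limit used.

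The H82-only transcription factors of the lists included a nuclear receptor. RORB, an orphan receptor of retina and brain, held 439 bp at a start for 470 instead of 459 residues, with the nearest H146 region 50427 bp away. POU2F1, a widely expressed octamer-binding factor, held 1503 bp, TCF7, a mediator of Wnt signalling, 4285 bp, EBF3, a helix-loop-helix factor of neuronal development, 1332 bp, and MEIS2, a homeodomain cofactor, 285 bp at an end tagged as start not found. RORB and MEIS2 are named beyond the 4 widest of their list and were chosen after their values were seen. The TCF7 and EBF3 regions overlapped H146 regions whose edges were 700 bp and 856 bp from the start, outside the 500 bp limit.

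In H146 the listed factors were SOX6, a regulator of neuronal and cartilage development, with 388 bp, ST18, a zinc finger relative of MYT1, with 2411 bp, and PAX6, a homeodomain factor of eye and pancreas. The ST18 region overlapped an H82 region 647 bp from the start. PAX6 had 12 of 18 internal ends within 500 bp of an H146 region, but these ends shared regions of 200 bp and 212 bp, and its gene-level end was open in H82 only. The PAX6 start named by the rule encodes 286 residues against 436 and lay 307 bp from its region.

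Synaptic and channel genes were among the listed 1-line genes as well. In H82 MAGI2, a synaptic scaffold protein, held 604 bp, 131508 bp from the nearest H146 region, and TRPM3, a heat-sensing cation channel, held 732 bp at a start of 230 instead of 1719 residues, 86522 bp away. CACNA1E, the pore of R-type calcium channels, held 1196 bp, KCNMA1, the BK potassium channel, 809 bp, and RIMS2, which organises the vesicle release site, 524 bp. PPFIA4, a liprin of the active zone, held 1094 bp, a region that overlapped an H146 region 600 bp from the start. In H146 GRIP2, a scaffold of glutamate receptors, held 786 bp at its canonical start and had a gene-level end open in H82 only. NCAM1, the neural cell adhesion molecule used as a neuroendocrine marker, held 365 bp at an exonic end tagged as start not found, and its gene-level end was open in both lines. MAP1B, a microtubule-associated protein, held 276 bp, and ERC1, an active zone scaffold, 1155 bp at an end tagged as start not found.

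The signalling genes of the lists split between the lines. In H82 these were the phosphodiesterases PDE1A (1925 bp) and PDE7A (200 bp), the GTPase regulators AGAP3 (3373 bp), TIAM1 (687 bp), NET1 (423 bp) and TRIO (218 bp), and GDNF (664 bp), a survival factor of neurons, while the PDE1A and AGAP3 regions overlapped H146 regions 518 bp and 1410 bp from the start. In H146 these were FGFR3 (4008 bp, at an exonic end tagged as start not found), a fibroblast growth factor receptor, EPHB2 (1073 bp), an ephrin receptor, PTPRR (387 bp), a receptor-type phosphatase, and ARHGEF28 (576 bp), a guanine nucleotide exchange factor. The FGFR3, EPHB2 and ARHGEF28 regions overlapped H82 regions 559 bp, 730 bp and 527 bp from the start, so of these only the PTPRR region had no H82 counterpart.

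Of the 6663 genes with an internal 5′ end, 66 had 1 start group open in H82 only and another in H146 only. In 28 of these 66 no group was open in both lines. Over all 13330 start groups, 8.67% were open in H82 only and 3.86% in H146 only. Whether the 66 genes exceed what these shares would give was not tested. Examples, chosen after their values were seen, are NOS1, the neuronal nitric oxide synthase, with 862 bp in H146 at its canonical start, 90.5 kb into the gene, and 222 bp in H82 at an exonic start 121 kb into it. GHRHR, the receptor of growth hormone-releasing hormone, held 441 bp in H146 at its canonical start, 25.3 kb into the gene, and 383 bp in H82 at a start 30.9 kb into it. In PPFIBP2, a liprin-binding protein, both starts had basic annotation and support level 1 or 2, with 377 bp in H82 at 63.1 kb and 342 bp in H146 at 83.9 kb. In SMAD3, a mediator of TGF-beta signalling, the H82 region of 546 bp and the H146 region of 659 bp lay at starts 34.8 kb and 64.3 kb into the gene. These regions were narrow, and of all H82 members of 300 to 499 bp 56.6% had an H146 counterpart.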

How the data were processed

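ATAC-seq was run on 13 libraries of H82 and H146. Per the study's methods and the submitters' processing notes, the authors trimmed reads with Trim Galore 0.4.4, aligned them to hg38 with Bowtie2 2.3.4, removed duplicates with Picard, called peaks per sample with MACS2, removed blacklisted regions and merged regions within 500 bp into 1 atlas per line. A control library of H146 was sequenced with the treated libraries in another batch, which pooling does not let be separated. The authors deposited region positions (start and end in bp) with no count, score or p-value, so depth is unknown and neither a model across features nor a replicate error could be had.

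Regions on chromosomes 1 to 22 were matched to GENCODE 44 with Python 3.11.15, pandas 2.3.3 and numpy 2.4.6, overlaps were checked with bedtools 2.31.1, and the steps were tested on simulated regions. Both 5 kb limits were applied to the transcript 5′ end. Intervals are exact Clopper-Pearson intervals at 95% (scipy 1.17.1). Sequence came from hg38 with pysam 0.24.0, and figures were drawn with matplotlib 3.10.9.

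Named genes were the 12 per line with the widest region at a 5′ end of basic annotation and transcript support level 1 or 2, no region of the other line lying within 5 kb, then the listed genes open in 1 line (up to 4 per list by width), and the 5 genes with the most start groups open in both. Printed windows had to lie under a region holding the 5′ end and outside annotated exons, so some of the widest were passed over. Some genes and sequences that these rules select are not reported here. The members and lists were chosen with earlier results of these data known. Alternatives changed the distances, transcript support, width, overlap and chromosomes used.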

Additional observations from a re-analysis of the deposited data

How the results depend on the processing

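No paired analysis was possible because the libraries of each line were pooled into 1 atlas. Of 124 values under 17 settings, 12 of them planned and the rest chosen after seeing the data, 70 moved by less than their limit and 54 moved by more. The order of the median widths, 1163.5 bp in H82 and 1178 bp in H146 as reported, did not hold throughout. The H82 median was the larger with canonical starts left out (1016 and 980 bp) and with regions of at least 500 bp (1524 and 1517 bp). It was also the larger with regions that hold the 5′ end (1457 and 1455 bp). The shared percentage was higher in H146 in 16 of 16 settings, and genes open in 1 line were more numerous in H82 in 15 of 15. In what follows, "shared" values are for H82 then H146 members, "width" values are medians in bp in the same order, and "ends" is the share of internal 5′ ends open in both lines.

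With regions within 1 kb of the 5′ end, shared was 73.3% and 84.7%, width 971 and 971, ends 44.9%. With regions that hold the 5′ end, shared was 84.0% and 93.3%, width 1457 and 1455, ends 34.6%. With 5′ ends over 10 kb from gene-level ends, ends was 39.4%. With the region itself over 5 kb away, H82 width was 1115 and ends 38.2%. With basic transcripts of support level 1 or 2, there were 2361 and 2139 members, shared was 85.2% and 93.3%, width 1449 and 1477, genes open in 1 line 282 and 106, ends 53.8%. Without 5′ ends within 1 kb of another gene's, width was 1119 and 1137, ends 37.9%. With regions of at least 500 bp, shared was 79.6% and 89.5%, width 1524 and 1517, ends 35.5%. With an overlap of at least 50% of both regions, shared was 60.5% and 70.1%, and with regions within 500 bp also counted, 78.9% and 89.1%. With no region of the other line within 5 kb, genes open in 1 line were 294 and 88. With ends of a gene within 500 bp counted once, ends was 28.8%. With incomplete starts left out, shared was 80.7% and 90.4%, width 1280 and 1311.5, ends 51.2%. With canonical starts left out, shared was 73.3% and 84.5%, width 1016 and 980.0, ends 27.5%. With regions of the same start and end removed from both atlases, H82 shared was 76.0%, width 1206 and 1224, ends 38.4%, and with those of the same start or end removed from both, shared was 68.7% and 82.02%, ends 27.8%. Stricter settings test fewer regions, and beyond that the cause was not tested.

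With 1 pooled atlas per line there was no replicate error and no depth, a region not listed in a line was not called there, and differences between H82 and H146 are differences between these atlases.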
